A study of Arabidopsis thaliana with 12 samples.

Results

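The 30 genes described here had higher transcript levels in wounded Arabidopsis rosettes in the light than in either intact rosettes in the light or wounded rosettes in the dark. They were chosen among 13355 genes from group means of 3 log2 values each. Wounded rosettes in the light had to exceed intact rosettes in the light by at least 1 on the log2 scale, which is a 2-fold difference, and to exceed wounded rosettes in the dark by at least 1 as well. Both differences had to have that sign in each of the 3 replicate experiments, and the mean in wounded rosettes in the light had to reach a log2 value of 5. A further 2 genes, BSMT1 and PUB19, met those demands and were left out by name. These 2 differences chose the genes, so they are given as a description with no test.

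The study crossed wounding with light in Arabidopsis thaliana to see whether the wound response of rosettes depends on light, with 12 Affymetrix ATH1 arrays. Plants first stood for 30 min at 22 °C in the dark or at a photon flux of 250 µmol m-2 s-1, then were wounded or left intact, and rosettes were frozen 60 min later. This gave 4 groups of 3 arrays: intact in the light, wounded in the light, intact in the dark and wounded in the dark. Wounds were made by crushing each leaf across its widest part with a haemostat, in the dark under a safelight, so a sample mixes crushed and uncrushed tissue of whole rosettes. Each array carried 1 RNA extract pooled from 15 to 17 plants, and each of the 3 independent experiments held all 4 treatments. The genotype and the age of the plants are not given in the sources used here. As no plants were sampled at the start, induction by light and decline in the dark cannot be told apart.

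In a crushed leaf, calcium and electrical signals spread from the wound and are followed by synthesis of jasmonate, a lipid hormone that switches on many defence genes. Light reaches leaf genes through photoreceptors, among them phytochromes and cryptochromes, and through the sugars, redox state and energy that photosynthesis supplies. Wounded tissue also draws on the phenylpropanoid pathway, which makes lignin precursors, and on enzymes that remodel the cell wall. The platform annotation gives 26 of the 30 genes a locus identifier alone, and the other 4 are 4CL8, CCR2, XTH19 and HOS3-1. AT1G76640 has the synonym CML39, for a calmodulin-like protein, in the RefSeq gene table. No role is given here for the remaining genes, since the tables used hold no description of them.

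Values are GCRMA log2 intensities of 1 probe set per gene. Array medians lay between 5.40 and 5.60, and precision is limited by having 3 arrays a group. A probe set was tested when it reached a log2 value of 4 on at least 3 arrays, which held for 13567 probe sets and for all 30 genes. For 27 of the genes it also held without the wounded arrays in the light, whereas AT5G15240, HOS3-1 and AT4G19460 passed through those arrays. Mean values under 4 were treated as dim, and the mean was dim in intact rosettes in the dark for 13 genes, in intact rosettes in the light for 6 and in wounded rosettes in the dark for 4. A difference from a dim mean gives only a bound, with that mean set at 4, and such differences are left out of every order of size. The adjusted p printed beside such a bound comes from limma on the values as measured, and is no test of the bound. All 4 means reached 4 in 17 genes. The 25S ribosomal RNA control stood at 9.62 ± 0.95 (SD, n = 3) in the intact dark group and at 7.27 ± 0.33, 7.36 ± 1.06 and 7.57 ± 0.77 in intact light, wounded light and wounded dark rosettes. That control moved with the intact dark group on which both tests rest, and the counts of calls in these tests are also given from a fit with it as a covariate. Such a fit cannot fully separate the control from that group, and fewer calls in it do not by themselves mean smaller differences. Leaf genes matched the label, with group means of RCA (Rubisco activase) and PSAE-1 (a photosystem I subunit) near the top of the scale, from 15.12 to 15.19 and from 14.77 to 14.95. The 1 root marker with a named probe set, PYK10, lay from 7.67 to 8.70 in group means, and marker lists of apex, flower, guard cell, trichome and phloem were not analysed here. In whole rosettes, fewer cells of a type and less RNA per cell cannot be told apart.

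In the light, wounded rosettes were 1.00 to 5.66 higher than intact ones on the log2 scale over the 30 genes, with dim means as measured and a median of 2.53, and wounded rosettes were 1.01 to 2.96 higher in the light than in the dark, with a median of 1.49. Among the 24 genes with both light means above the dim range, the largest wounding differences were those of AT1G76640 (3.80), AT5G53750 (3.74) and CCR2 (3.64). Wounding in the light came to at least 17.8-fold for AT5G38700, 17.6-fold for AT2G14290 and 10.6-fold for AT4G33905, whose intact light means were dim. Among the 26 genes with both wounded means measured, the largest light differences in wounded rosettes were those of AT1G76640 (2.49), 4CL8 (2.31) and AT4G10390 (2.29). Group means ran from wounded light through wounded dark and intact light to intact dark in 18 genes. In 9 genes intact light stood above wounded dark, and in the last 3, AT5G38700, AT5G53750 and AT5G63130, intact light was the lowest group.

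**Figure D1:**
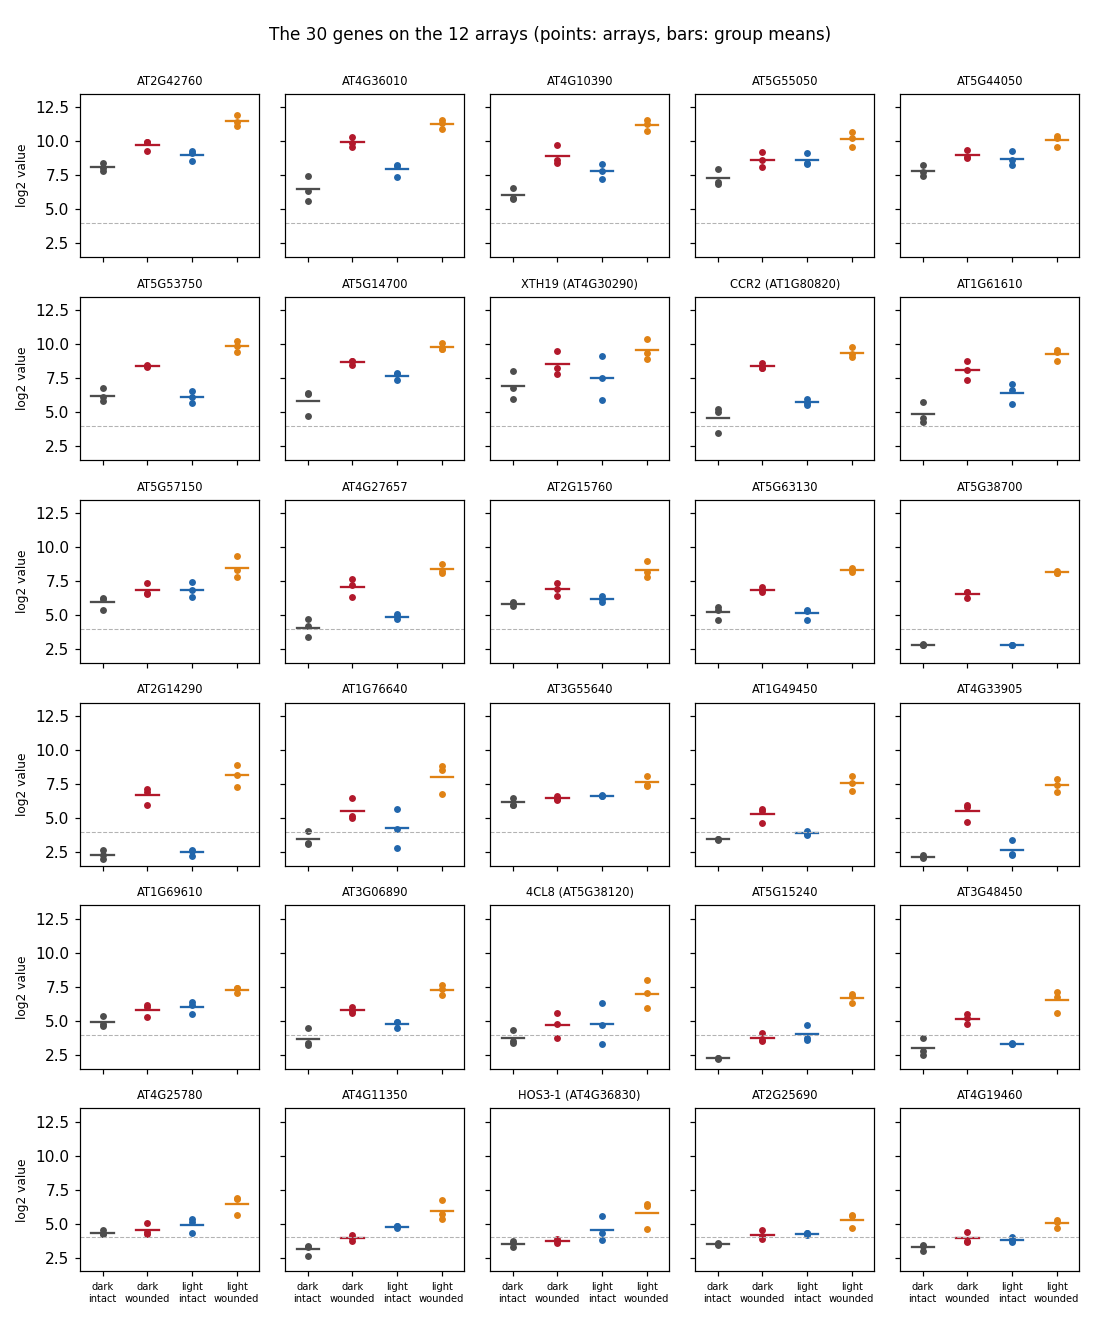
Log2 values (y axis) of the 30 genes on the 12 arrays, with 1 panel per gene and 1 column per group; points are arrays, bars are means of 3 arrays, and the dashed line is the log2 value of 4 under which a mean was treated as dim. Wounded rosettes in the light are the highest group in every panel because the genes were chosen for it, and intact rosettes in the dark are the lowest group in 27 panels.

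Genes just inside the wounding threshold were AT3G55640 at 1.00, AT2G25690 at 1.04 and AT4G11350 at 1.17, and just outside were AT2G37580 at 0.95, AT2G40230 at 0.85 and AT3G17130 at 0.84. For the light difference in wounded rosettes, XTH19 at 1.01, CCR2 at 1.03 and AT5G44050 at 1.08 were just inside, and AT3G23170 at 0.98, NAI1 at 0.98 and ATPMEPCRB at 0.98 were just outside. The mean in wounded rosettes in the light was 5.04 for AT4G19460, 5.32 for AT2G25690 and 5.81 for HOS3-1, against 4.92, 4.66 and 4.49 for AT3G28600, AT4G29610 and AT2G22200, which failed. UGT76E1 failed through the sign in 1 experiment alone. Both differences thus form a continuous range across the thresholds, with 31 genes failing the wounding threshold alone and 84 failing the light threshold alone.

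The first comparison the choice did not use is wounding in the dark, wounded minus intact. The arrays of wounded rosettes in the dark are shared with the choice, which favoured low values there, so a rise in the dark goes against that preference. All 30 genes had a positive fitted difference, from 0.17 to 4.37 on the log2 scale with a median of 1.65, whereas the median over all 13567 tested probe sets was -0.08. By limma with Benjamini-Hochberg adjustment over all tested probe sets, 18 of the 30 rose at an adjusted p under 0.05, and 5.84% of all tested probe sets did so. Of the 27 genes that passed the filter without the wounded light arrays, 17 rose, and the other gene among the 18 is AT5G15240, dim in both dark groups. With dim means set at 4 the median of the 30 was 1.42, and 11 of the 17 genes measured in both dark groups rose. No gene of the set fell (2.28% of all tested probe sets), and none had a lower value at an unadjusted p under 0.05, while 24 were higher at that level. Of all 13567 tested probe sets, 1405 were higher and 1126 lower at that level. In 24 genes every wounded array in the dark exceeded every intact one, which was seen for 10.2% of all tested probe sets. The difference was positive in each of the 3 experiments in 28 genes, a count given without a share of all probe sets. With the replicate experiment as a block, 25 genes rose and the background was 9.08%. With the 25S control as a covariate, 13 rose, with a background of 1.58%.

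Among the 11 genes that rose in the dark with both means measured, CCR2, a cinnamoyl-CoA reductase of the lignin pathway, had the largest difference. It was at 3.49, 5.01 and 5.23 in intact and 8.26, 8.25 and 8.61 in wounded rosettes in the dark, a rise of 3.80 ± 0.38 (SE, n = 3, adjusted p = 0.000356). The wounded arrays of CCR2 lay clear above the intact ones. AT4G36010 rose by 3.46 ± 0.41 (adjusted p = 0.000777), AT1G61610 by 3.22 ± 0.48 (adjusted p = 0.00233), AT4G27657 by 2.99 ± 0.38 (adjusted p = 0.00108) and AT5G14700 by 2.87 ± 0.38 (adjusted p = 0.00139). From a dim intact mean, AT2G14290 rose at least 6.36-fold (adjusted p = 0.000157), from 1.98, 2.64 and 2.27 in intact to 7.13, 6.89 and 5.98 in wounded rosettes. AT5G38700 rose at least 5.86-fold (adjusted p = 1.5e-07) and AT4G33905 at least 2.81-fold (adjusted p = 0.000626). At the other end of the 17 measured genes, AT4G25780 and AT3G55640 differed by 0.21 ± 0.36 and 0.31 ± 0.21, with adjusted p = 0.848 and 0.516, so no rise in the dark was detectable for them with 3 arrays a group.

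The second comparison the choice did not use is light in intact rosettes, light minus dark. Its light arrays are shared with the choice, which favoured low values in intact rosettes in the light, so a higher level there again goes against the preference. It shares the 3 intact dark arrays with the test of wounding in the dark, so the calls of the 2 tests are not independent. The difference was positive in 27 genes and negative in 3, from -0.11 to 1.86 with a median of 0.85, against a median of 0.07 over all tested probe sets. By the same limma test, 12 of the 30 genes were higher in the light, and 12.3% of all tested probe sets were. Of the 27 genes that passed the filter without the wounded light arrays, 11 were higher, and the other one is again AT5G15240. With dim means set at 4 the median of the 30 was 0.58, and 8 of the 17 genes measured in both intact groups were higher. None was lower (10.9% of all tested probe sets), and none was lower at an unadjusted p under 0.05, while 16 were higher at that level. Of all 13567 tested probe sets, 2788 were higher and 2205 lower at that level. Light and dark arrays of intact rosettes did not overlap, light being higher, in 15 genes (21.4% of all tested probe sets). In each experiment 22 genes were higher in the light, again without a share of all probe sets. With the replicate block 17 genes were higher in the light, where the background was 23.4%. With the 25S covariate 6 were, against a background of 2.76%. Leaving out 1 array took the 12 down to 5 without intact dark replicate 1, to 5 without intact light replicate 1, and to 6 without intact dark replicate 3 or intact light replicate 2. Calls over all probe sets moved too, with 1079 to 1674 higher when 1 array was left out, against 1670 with all 12 arrays.

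Among genes measured in both intact groups AT5G14700 had the largest light difference, with 7.88, 7.85 and 7.35 in the light and 4.72, 6.42 and 6.37 in the dark, a difference of 1.86 ± 0.38 (SE, n = 3, adjusted p = 0.00557). AT4G10390 differed by 1.74 ± 0.40 (adjusted p = 0.0104), AT1G61610 by 1.56 ± 0.48 (adjusted p = 0.037), AT4G36010 by 1.46 ± 0.41 (adjusted p = 0.0251) and AT5G55050 by 1.33 ± 0.40 (adjusted p = 0.0334). AT5G15240 was at 4.73, 3.60 and 3.78 in intact light and 2.28, 2.22 and 2.25 in intact dark rosettes (adjusted p = 0.00151). Its dark arrays were dim and its light mean was barely above 4, so these values set almost no lower bound on the difference, at 1.02-fold. In the 3 genes whose difference was negative, AT5G53750, AT5G63130 and AT5G38700, the values were -0.11 ± 0.28, -0.08 ± 0.25 and -0.02 ± 0.14, with adjusted p = 0.811, 0.846 and 0.918, the last between dim means.

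**Figure D2:**
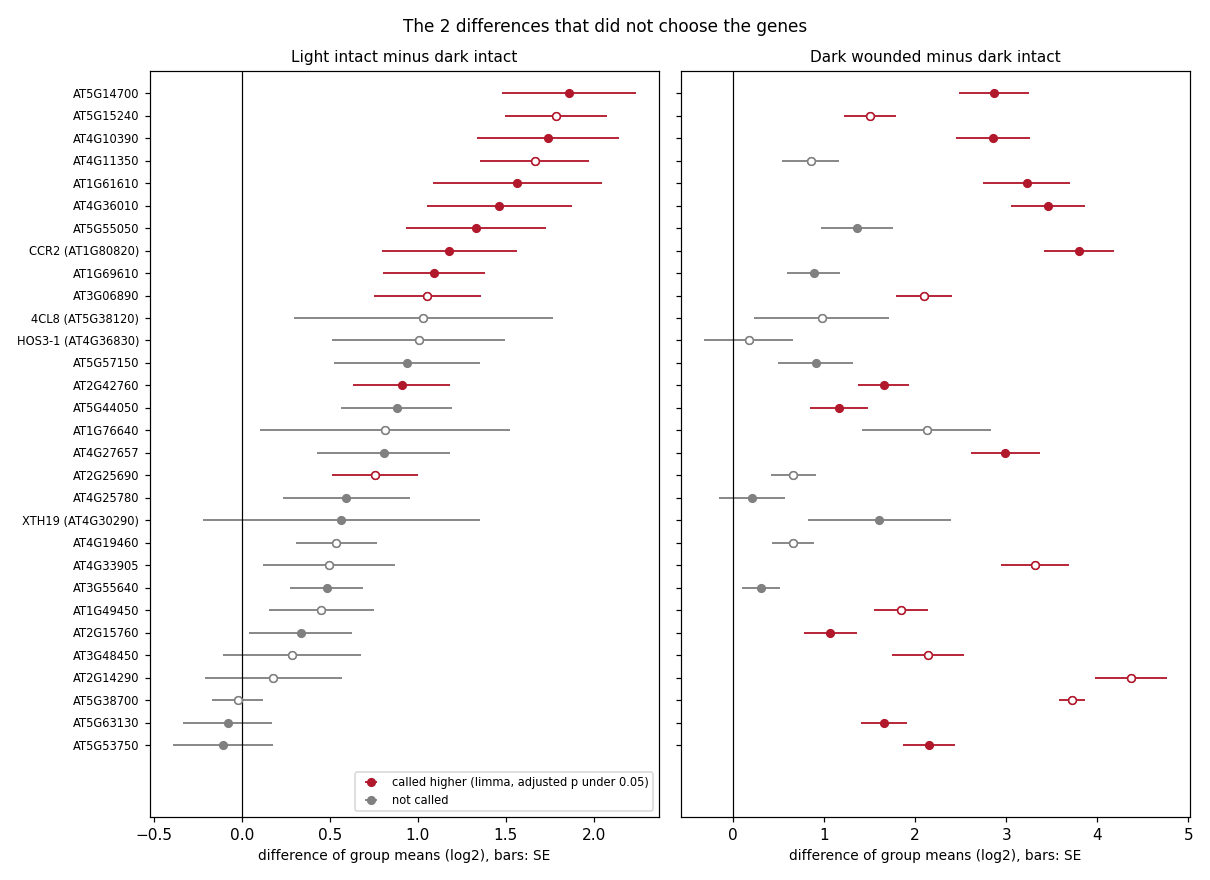
Differences of group means on the log2 scale (x axis) with SE bars for the 30 genes, ordered by the light difference in intact rosettes: light minus dark in intact rosettes (left) and wounded minus intact in the dark (right). Red points passed limma at an adjusted p under 0.05, 12 on the left and 18 on the right, open points have a mean under 4 in a group compared and so give no exact difference, and both panels share the 3 intact dark arrays.

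Set side by side, 8 genes were called higher in both tests, 10 in dark wounding alone, 4 in intact light alone and 8 in neither. Both tests subtract the same intact dark arrays, which favours calls in both for any probe set. These counts, and those of the other fits, are given without a share of all tested probe sets. They therefore describe the genes and do not show that calls in both are particular to the set. The split rests on the fit: with the 25S covariate 3 genes were called in both, AT1G61610, AT2G42760 and AT4G10390, with 10, 3 and 14 in the other classes, and with the replicate block 14 were called in both, with 11, 3 and 2 in the others. The 8 called in both without those terms were AT4G10390, AT5G15240, AT2G42760, AT3G06890, AT4G36010, AT1G61610, AT5G14700 and CCR2. Among them AT5G15240 passed the filter only through the wounded light arrays. Both its dark means were dim, so its dark rise was not measured and its intact light difference was at least 1.02-fold. AT4G10390 was at 8.37, 7.86 and 7.20 in intact and 11.30, 11.59 and 10.74 in wounded rosettes in the light, and at 6.60, 5.77 and 5.84 in intact and 9.76, 8.40 and 8.61 in wounded rosettes in the dark. Its 4 groups did not overlap, and the narrowest gap was between the highest intact light and the lowest wounded dark array. AT4G36010 was at 8.24, 8.20 and 7.37 in intact and 11.36, 11.59 and 10.94 in wounded rosettes in the light, and at 5.60, 7.44 and 6.39 in intact and 9.89, 10.30 and 9.61 in wounded rosettes in the dark. Its groups had the same order, with an overlap between the intact light and intact dark arrays alone. AT2G42760 had means of 11.50 in wounded light, 9.74 in wounded dark, 8.99 in intact light and 8.08 in intact dark rosettes. It rose by 1.65 ± 0.28 with wounding in the dark (adjusted p = 0.00388) and was 0.91 ± 0.28 higher in intact rosettes in the light (adjusted p = 0.0352). AT3G06890 rose at least 3.48-fold with dark wounding (adjusted p = 0.00201) and was at least 1.69-fold higher in light (adjusted p = 0.0283), from a dim intact dark mean.

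The 2 genes of this group with a dim intact dark mean have only a lower bound for the whole range from intact dark to wounded light. AT5G15240 spanned at least 6.57-fold and AT3G06890 at least 9.89-fold, with the intact dark mean set at a log2 value of 4. AT4G10390 spanned 35.3-fold and AT4G36010 28.3-fold. In AT4G36010, AT1G61610, AT5G14700 and CCR2, and in no other gene of the 30, the wounding difference was larger in the dark (3.46, 3.22, 2.87 and 3.80) than in the light (3.36, 2.84, 2.11 and 3.64), which is described and not tested. In each of these 4 the first intact dark array was the lowest, at 5.60, 4.28, 4.72 and 3.49. CCR2 was called in intact light at an adjusted p of 0.0461 and in 4 of its 18 alternatives, over which the adjusted p ran from 0.0231 to 0.184.

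Both intact means were dim in 6 genes, of which AT5G38700, AT2G14290, AT4G33905, AT1G49450 and AT3G48450 are among the 10 called in dark wounding alone and AT4G19460 was called in neither test. AT5G38700 stood at 2.84, 2.80 and 2.78 in intact light and 2.81, 2.83 and 2.85 in intact dark rosettes, and reached 8.09, 8.11 and 8.25 with wounding in the light and 6.24, 6.72 and 6.69 with wounding in the dark. AT2G14290 was likewise dim in intact light, at 2.58, 2.63 and 2.23, and reached 8.20, 8.92 and 7.28 with wounding in the light. AT4G33905 was at 2.27, 3.37 and 2.35 in intact light rosettes and at 7.42, 7.87 and 6.95 in wounded ones. With both intact groups dim, no light difference in intact rosettes could be measured for the 6. With dim means set at 4, wounded light rosettes stood at least 17.8-fold, 17.6-fold and 10.6-fold above intact dark ones.

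AT5G53750 and AT5G63130 were measured well above that floor in intact rosettes and passed no test of light there. AT5G53750 was at 6.56, 6.11 and 5.71 in intact light and 6.12, 6.76 and 5.82 in intact dark rosettes. After wounding it was at 9.90, 10.26 and 9.44 in the light and at 8.34, 8.45 and 8.38 in the dark. AT5G63130 was at 4.64, 5.33 and 5.41 in intact light, 4.68, 5.58 and 5.37 in intact dark, 8.18, 8.33 and 8.47 in wounded light and 6.72, 7.04 and 6.82 in wounded dark rosettes. In both genes the light and dark arrays separated in wounded rosettes, by which they were chosen, and overlapped in intact rosettes. Their light differences in intact rosettes had SEs of 0.28 and 0.25, so differences of that order could not have been seen. The remaining genes of this class are AT2G15760, AT4G27657 and AT5G44050, with dark rises of 1.07, 2.99 and 1.16, and AT1G49450 and AT3G48450, with dark rises of at least 2.43-fold and 2.25-fold. AT2G15760 and AT5G44050 stood close to the threshold in dark wounding, both at an adjusted p of 0.0467. AT5G44050 was also called in intact light with the replicate block (adjusted p = 0.0057, and 0.0057 to 0.277 over its alternatives).

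AT4G11350, AT5G55050, AT1G69610 and AT2G25690 were called in intact light alone. AT4G11350 was at 4.86, 4.67 and 4.82 in intact light and 2.62, 3.41 and 3.33 in intact dark rosettes, and at 5.38, 6.73 and 5.76 in wounded light and 3.77, 4.15 and 3.99 in wounded dark rosettes. In that gene every light array exceeded every dark array, whether wounded or not. Its light difference in intact rosettes was at least 1.72-fold (adjusted p = 0.00338), and both dark means were dim, so dark wounding gave no measured difference (adjusted p = 0.143). AT5G55050 differed by 1.33 ± 0.40 with light (adjusted p = 0.0334) and by 1.36 ± 0.40 with dark wounding (adjusted p = 0.0624), and AT1G69610 by 1.09 ± 0.29 (adjusted p = 0.0203) and 0.89 ± 0.29 (adjusted p = 0.102). With the replicate block dark wounding also called AT4G11350 (adjusted p = 0.0471, and 0.0428 to 0.442 over its alternatives), AT5G55050 (0.00742, and 0.00742 to 0.248) and AT1G69610 (0.0167, and 0.0167 to 0.323). AT2G25690 was at least 1.21-fold higher in intact light, close to the threshold of the test (adjusted p = 0.0459), and was not called in dark wounding (adjusted p = 0.151).

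The 8 genes called in neither test come from a fit without a term for the experiment, and with the replicate block 2 genes remained. The 8 included the 3 with the largest SEs, XTH19, 4CL8 and AT1G76640. They also included AT4G25780 and AT3G55640, with the smallest measured dark wounding differences. XTH19, a xyloglucan endotransglucosylase/hydrolase that cuts and rejoins wall xyloglucan, was at 7.51, 5.88 and 9.13 in intact and 9.34, 8.94 and 10.39 in wounded rosettes in the light, and at 6.81, 5.94 and 8.07 in intact and 8.28, 7.85 and 9.52 in wounded rosettes in the dark. Replicate 3 was the highest and replicate 2 the lowest in every group, so the arrays overlapped between groups although wounded exceeded intact rosettes in each experiment, in the light and in the dark. The dark wounding difference of XTH19 was 1.61 ± 0.79 (adjusted p = 0.313), and with the replicate block it was called (adjusted p = 0.00486, and 0.00486 to 0.965 over its alternatives). AT1G76640 (CML39), a calmodulin-like calcium-binding protein, was at 5.66, 4.23 and 2.83 in intact light and 8.83, 8.53 and 6.77 in wounded light rosettes, and at 4.05, 3.08 and 3.14 in intact dark and 6.47, 5.03 and 5.15 in wounded dark rosettes. Its wounded arrays exceeded the intact ones within the light and within the dark, while intact light and intact dark arrays overlapped. Its dark rise of at least 2.93-fold was called in 2 of its 18 alternatives, with the replicate block (adjusted p = 0.00539) and with the arrays compared alone, and not in the fit used here (adjusted p = 0.107, and 0.00539 to 0.309 over its alternatives).

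4CL8, of the 4-coumarate:CoA ligase family of acyl-activating enzymes, was at 6.32, 4.69 and 3.28 in intact and 8.02, 7.05 and 5.97 in wounded rosettes in the light, and at 4.32, 3.51 and 3.37 in intact and 5.57, 4.80 and 3.75 in wounded rosettes in the dark. Within each group experiment 1 gave the highest and experiment 3 the lowest value, with a range of 3.04 in intact light rosettes, and of its 18 alternatives 1 called light in intact rosettes, the replicate block (adjusted p = 0.0226, and 0.0226 to 0.836 over its alternatives). HOS3-1, a gene of the ELO family of fatty acid elongases, was at 4.30, 5.55 and 3.82 in intact light and 6.32, 6.49 and 4.61 in wounded light rosettes, and at 3.61, 3.33 and 3.71 in intact dark and 3.86, 3.58 and 3.71 in wounded dark rosettes. All 6 dark arrays of HOS3-1 were dim, so a change in the dark could not be measured. AT5G57150 was called in both tests with the block (adjusted p = 0.0451 for dark wounding and 0.0178 for light, over alternatives 0.0451 to 0.634 and 0.0178 to 0.34), with differences of 0.91 and 0.94. AT4G19460 was too (adjusted p = 0.0354 and 0.0376, over alternatives 0.0354 to 0.441 and 0.0376 to 0.382), with all 3 means compared in the dim range. AT3G55640 was called in intact light with the block (adjusted p = 0.049) and with the 25S covariate, over alternatives 0.0206 to 0.264, with a difference of 0.48. AT4G25780 passed neither, with 5.38, 5.17 and 4.31 in intact light and 6.88, 6.82 and 5.64 in wounded light rosettes, against 4.56, 4.24 and 4.29 in intact dark and 5.04, 4.25 and 4.41 in wounded dark rosettes.

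The wounding differences in the light and in the dark can be set beside each other gene by gene, with no array in common. In the 17 genes with no dim mean, the difference in the dark was 78.4% of that in the light at the median on the log2 scale, from 14.0% for AT4G25780 to 136% for AT5G14700. It was smaller in the dark in 13 of the 17 and larger in 4, AT4G36010, AT1G61610, AT5G14700 and CCR2. The light difference minus the dark one ran in them from -0.76 to 1.59 with a median of 0.50. The choice favoured high wounded light, low intact light and low wounded dark values. Each of these makes the dark difference smaller beside the light one, so these values are a description and do not measure a weaker response in the dark. Across these genes the wounding differences in the light and in the dark went together (Pearson's r = 0.81, n = 17 genes that share libraries).

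**Figure D3:**
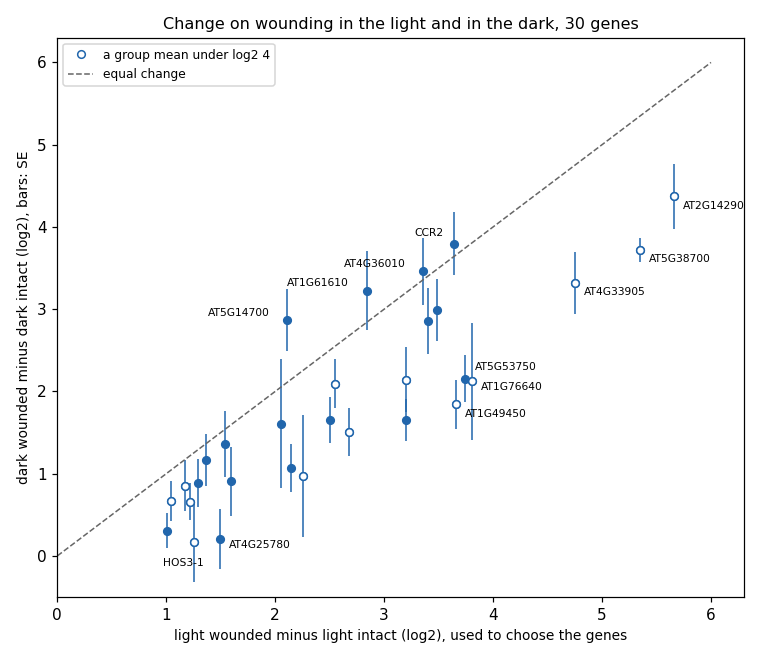
Wounded minus intact in the light (x axis) and in the dark (y axis, with SE bars), both on the log2 scale, for the 30 genes; the dashed line marks equal differences. Filled points, the 17 genes with all 4 means measured, lie below the line in 13 genes and above it in AT4G36010, AT1G61610, AT5G14700 and CCR2, and open points have a dim mean and no exact difference. The x axis was used to choose the genes, and so were the wounded dark values in the y axis, which favours points below the line.

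Genes that met the wounding demand in the light without a light difference in wounded rosettes had mostly lower levels in the light in intact rosettes, unlike the 30. The wounding demands alone were met by 465 genes, and 258 of the 465 had a light difference in wounded rosettes under 0.5 in size. In those 258 genes the light difference in intact rosettes was positive in 50 and negative in 208, with a median of -0.49, against 27, 3 and 0.85 in the 30. Of the 258, 2 were called higher and 47 lower in intact rosettes in the light, against 12 and 0 of the 30. Over genes measured in both intact groups, the difference was positive in 43 and negative in 191 of 234, with a median of -0.51, against 15 and 2 of 17 with a median of 0.91. Dark wounding gave a median of 1.39 and 182 called rises (70.5%) in the 258, against 1.65 and 18 (60%) in the 30. In all 465 genes 308 rises were called (66.2%), so a called rise in the dark was not particular to the 30. The wounding demand favoured low values in intact light rosettes in both sets, so the lower levels in the 258 go with that choice. Membership of both sets was set by values from the same arrays, so the contrast between them has no test.

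**Figure D4:**
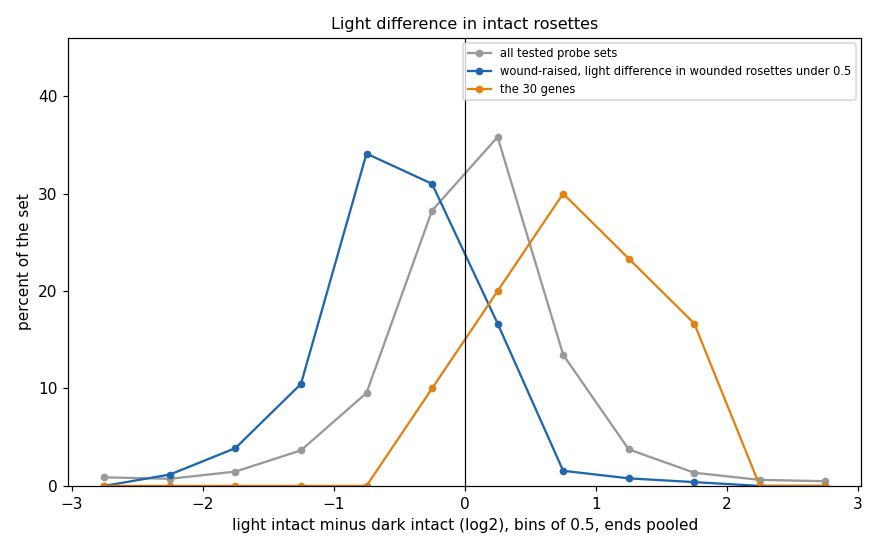
Light minus dark in intact rosettes (x axis, log2, bins of 0.5 with the ends pooled) as a percentage of each set (y axis) for the 30 genes, the 258 wound-raised genes with a light difference in wounded rosettes under 0.5, and all 13567 tested probe sets. The 258 genes lie mostly left of 0, with a median of -0.49, and the 30 mostly right of it, with a median of 0.85. The choice of both sets favoured low values in intact light rosettes.

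The choice was also repeated in 2 experiments, and the same differences were read in the third. The demands themselves were set with earlier results of these data known, so the readings are a description and not a test. The shares of all genes beside them cover 13355 genes. Of these, 6300 had a wounded light mean of at least 5 over the 3 experiments, so the shares are no matched background. When experiments 2 and 3 chose, 35 genes were found, and in experiment 1 their wounding difference in the light was at least 1 in 29, against 3.92% of all genes. Their light difference in wounded rosettes was at least 1 in 23 of the 35, against 1.84% of all genes. With experiment 2 read, 29 genes were found, of which 25 reached 1 in wounding (4.82% of all genes) and 21 in light (2.79%). With experiment 3 read, 45 genes were found, of which 33 reached 1 in wounding (3.59%) and 22 in light (2.85%). The light difference was thus under 1 in a larger share of the genes read in experiment 3 than in those read in experiments 1 and 2. Its medians were 0.90 in experiment 3 and 1.45 and 1.46 in experiments 1 and 2. These are different sets of genes, so the set and the experiment cannot be told apart, and no test was made. In the 30 genes the medians were 1.46, 1.71 and 1.36 in experiments 1, 2 and 3. The 3 sets share 27, 23 and 27 genes with the 30.

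Pathway lists of wound and light genes give the surroundings of the set. Of 187 entries in lists that cover jasmonate synthesis, repressors, breakdown and response, ERF and WRKY factors, rapid wound regulators, phenylpropanoids, glucosinolates, light signalling, the clock, cold, sugar and photosynthesis, 40 could be matched to a named probe set, of which 38 were tested. No entry is among the 30 genes. Of all tested probe sets, 5.84% rose and 2.28% fell in dark wounding, and 12.3% were higher and 10.9% lower in intact light. In dark wounding 12 entries rose, from COR47, a dehydrin, at 0.96 ± 0.20 (adjusted p = 0.011) to ERF019, an AP2/ERF factor, at 4.98 ± 0.79 (adjusted p = 0.00314), and 1 fell, the cryptochrome inhibitor BIC2, at -1.52 ± 0.37 (adjusted p = 0.0272). Wounded light minus wounded dark rosettes ran in those 12 from -1.10 for WRKY22 to 0.85 for OPCL1, below the 1 that the 30 genes had to reach. In intact rosettes 11 entries were higher in the light, from IGPS, a tryptophan synthesis enzyme, at 0.85 ± 0.27 (adjusted p = 0.0444) to BIC1, another cryptochrome inhibitor, at 3.72 ± 0.38 (adjusted p = 9.48e-05), and 4 were lower, WRKY6, WRKY22, ERF019 and CML38. Wounded minus intact light rosettes ran in those 11 from -1.32 for MYC4 to 0.88 for IGPS.

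The genes next to the 30 on the chromosome were looked at after their values were seen, with the order of genes taken from RefSeq's TAIR10.1 annotation. Of 60 adjacent protein-coding genes 23 were tested, 5 had a wounding difference in the light of at least 1, and none was itself in the set. Dark wounding called 6 of the 23 higher (5.84% of all tested probe sets), and light in intact rosettes called 4 higher (12.3%). CML38 lies next to AT1G76640 and is of the same calmodulin-like family, and it was at 8.84, 8.13 and 7.69 in intact and 12.77, 12.45 and 12.26 in wounded rosettes in the light. In the dark CML38 was at 8.48, 10.93 and 10.36 in intact and 12.95, 13.31 and 12.49 in wounded rosettes, so that wounded light and wounded dark arrays overlapped and differed by -0.42. In intact rosettes CML38 differed between light and dark by -1.70 ± 0.52 (SE, adjusted p = 0.0372), where AT1G76640 was not called (adjusted p = 0.443).

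XTH18, next to XTH19 and of the same enzyme family, had means of 7.29 in intact and 11.47 in wounded light rosettes and of 8.92 in intact and 11.56 in wounded dark rosettes. Its wounded arrays differed by -0.08 between light and dark, where XTH19 differed by 1.01. Signal that one of these related genes gives on the other's probe set was not tested. AT4G27654, next to AT4G27657, rose with dark wounding from a dim mean of 3.49 to 9.30 (adjusted p = 1.5e-07), beside a rise of 2.99 ± 0.38 for AT4G27657, and its light difference in wounded rosettes of 0.78 fell short of 1. AT5G38130, next to 4CL8, had a light difference of 2.26 in wounded rosettes, and in intact rosettes means of 5.80 in the light and 3.99 in the dark (adjusted p = 0.0327). It was not called in dark wounding (adjusted p = 0.732). AT3G48460, next to AT3G48450, was 1.86 higher in wounded and 2.33 ± 0.20 higher in intact rosettes in the light (adjusted p = 3.37e-05), where AT3G48450 was 1.35 higher in wounded rosettes and dim in both intact groups.

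**Figure D5:**
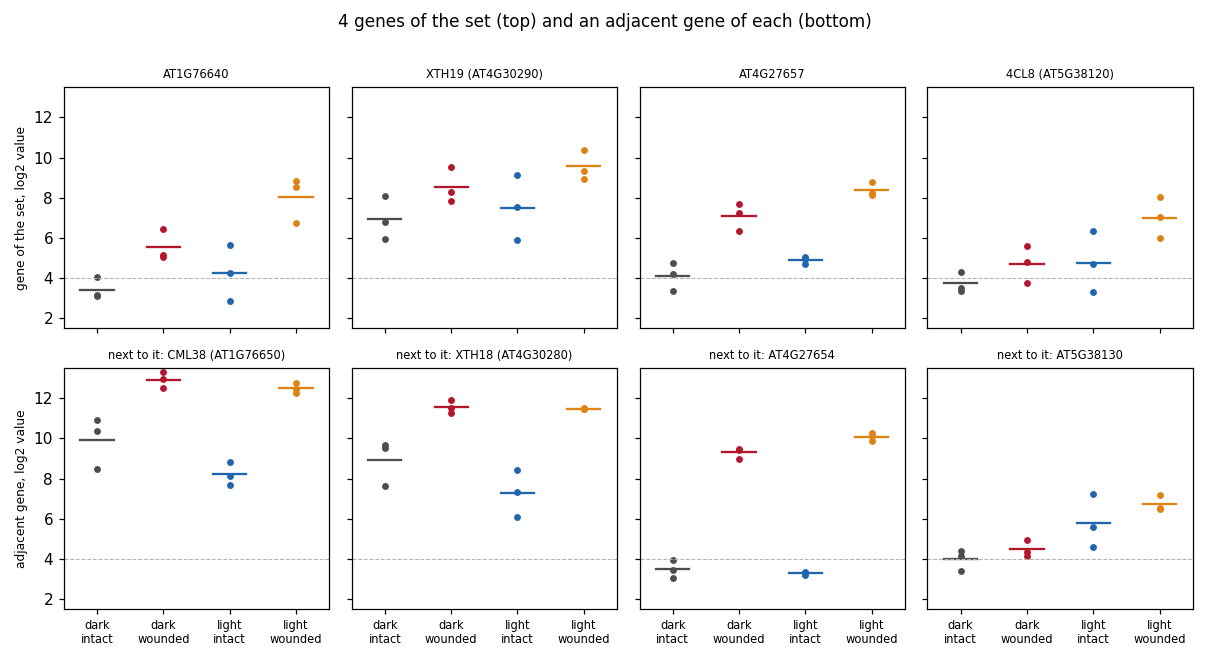
Log2 values (y axis) on the 12 arrays of AT1G76640, XTH19, AT4G27657 and 4CL8 (top) and of an adjacent gene of each, CML38, XTH18, AT4G27654 and AT5G38130 (bottom); points are arrays, bars are means of 3 arrays and the dashed line is a log2 value of 4. CML38 and XTH18 have overlapping wounded light and wounded dark arrays, as XTH19 has, whereas those of AT1G76640 do not overlap.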

How the data were processed

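The deposited values of the authors are log2 intensities of 22810 Affymetrix ATH1 probe sets, 64 of them controls, made with GCRMA, per the submitters' processing notes; version and annotation are not given in the sources used here. The treatment text of dark wounded replicate 2 is abbreviated, and its title and source name gave the group. The platform annotation gave 1 gene to 13513 probe sets, several to 503 and none to 8730. Of the 13513, 13484 matched RefSeq's TAIR10.1 gene table and 29 did not. A gene was represented by its probe set with the highest mean, and each of the 30 has 1 probe set.

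Differences were fitted with limma 3.58.1 (R 4.3.3) on all 12 arrays, with a mean for each group and empirical Bayes moderation (residual df 8, prior df 3.19), two-sided. This fit had no term for the experiment, which the replicate block adds. The fit was first run on simulated data with independent arrays, which does not check it for arrays paired by experiment. p-values were adjusted by Benjamini-Hochberg over the 13567 tested probe sets. The replicate numbers mark the 3 experiments and pair the arrays, per the series design: after removing group means, all 18 same-numbered pairs of arrays had positive r across probe sets, from 0.30 to 0.76. Members and lists were chosen with earlier results of these data known. The naming rule took the members with the largest differences, the called members with the largest changes, the 3 genes on each side of a threshold and the called genes of lists, and the other members and the adjacent genes were named after their values were seen. The alternatives tried were other brightness filters, array centring, the replicate block, the 25S covariate, fits on the arrays compared and each array left out. No promoter or protein sequence was used here.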

Additional observations from a re-analysis of the deposited data

How the results depend on the processing

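The number of genes was 11 with both differences at 1.5 and 59 with both at 0.8, and 29 to 45 with 1 experiment left out. Array centring (30 genes, 29 of them shared), a wounded light mean of 6 (26), no demand on the experiments (31) and, added after seeing the data, leaving out AT1G76640 by its synonym (29) moved it less. Dark wounding called 18 genes higher, 25 with the replicate block, 13 with the 25S covariate, and 16 to 19 with 1 array left out. For light in intact rosettes 12 were called higher, 17 with the block, 6 with the covariate, 4 with no brightness filter and 7 of the 22 tested with only the arrays compared. With 1 array left out they were 5 to 11. No alternative called a gene lower in either test. The signs turned in 4 genes, none of which passed the test of that difference. In intact light, the covariate gave -1.10 for XTH19, 0.56 for AT5G53750 and 0.025 for AT5G63130, and leaving out 1 array gave -0.25 to 1.38, -0.33 to 0.16 and -0.34 to 0.16. For dark wounding of AT4G25780 it gave -0.030 to 0.37. Over all probe sets, leaving out 1 array gave 531 to 795 rises and 127 to 308 falls in dark wounding, and 1079 to 1674 higher and 1063 to 1571 lower in intact light. The causes were not tested. A planned description of promoter motifs was not run, since no sequence was used here. Limits are the 3 arrays a group, dim values with no depth, the shared intact dark arrays and the elevated 25S control there.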
